A study of Homo sapiens with 4 samples.

Results

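Collagen-binding integrins are cell surface receptors made of an alpha and a beta chain, and 5 genes encode them. ITGA1, ITGA2, ITGA10 and ITGA11 each encode an alpha subunit, and ITGB1 encodes the beta1 subunit that all of these alpha subunits pair with. The 5 genes were taken from the count table by symbol, as 5 of its 43714 genes, and all 5 were among the 30952 genes kept for testing. They were put together with the difference between the cell lines already known, above all that of ITGA11. That difference is therefore described for them with an error but with no test, and nothing is drawn from how many of them passed one.

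The cells were MDA-MB-231, a human line from a triple-negative breast carcinoma, stably carrying the 7TGP plasmid, whose 7 TCF sites switch on EGFP when beta-catenin acts through TCF/LEF factors in canonical Wnt signalling. The treatment label names the vector for the positive samples only and calls the negative ones control, whereas the series' design text and the treatment protocol have both lines made from cells carrying it, which is followed here. All cells had been selected in 3 ug/mL puromycin, grown in medium with 10% fetal bovine serum and sorted for EGFP in 8 rounds. The reporter-positive line (MDA-MB-2317TGP-POS, here POS) was over 80% EGFP-positive and the reporter-negative line (MDA-MB-2317TGP-NEG, here NEG), which the labels name as the control, over 95% EGFP-negative. Each line gave 2 RNA libraries with totals between 55894092 and 63034563 gene counts. The labels do not give separate cultures for the libraries, so the p-values rest on library-to-library spread alone and that spread may be technical. A single derived line stands for each reporter state, so the effect of reporter activity cannot be told apart from what else sets these lines apart. The question for the collagen-binding integrins is how their levels and their make-up differed between the lines.

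In integrins of this group the alpha subunit carries an inserted domain that grips collagen through a bound metal ion, and the beta subunit links the pair to talin and the actin cytoskeleton inside the cell. Integrin alpha1beta1 is known as a receptor that favours basement membrane collagen IV, and alpha2beta1 as a receptor for fibrillar collagen I on epithelial cells, platelets and carcinoma cells. Integrin alpha10beta1 is best known from cartilage, and alpha11beta1 from fibroblasts, including those of tumour stroma, where it binds fibrillar collagen. Integrin beta1 also pairs with alpha subunits that bind laminin or fibronectin, so its level is not specific to collagen receptors.

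The labels call the cells mesenchymal. All 6 mesenchymal markers of this line examined (VIM, ZEB1, FN1, CD44, AXL and CAV1) were above 100 CPM (read counts relative to library size, scaled by the TMM method) in each library, and CDH1 and PGR stayed under 1 CPM. The keratin genes KRT8, KRT18 and KRT19 were also expressed, at 54.5 CPM or more. ESR1 (4.88 to 6.18 CPM), EPCAM (4.49 to 4.74) and GATA3 (2.65 to 4.03) were above 1 CPM in each library as well. Because alpha11 is a fibroblast integrin, 10 fibroblast markers were read as well. Their summed level was 21.0 to 23.8 CPM in the NEG and 19.6 to 22.5 CPM in the POS libraries. None was at 0. DCN, COL1A2, COL3A1, FAP, THY1 and PDGFRA stayed under 1 CPM in every library, while PDGFRB (5.84 to 7.92 CPM), ACTA2 (4.90 to 7.73), COL1A1 (3.30 to 4.98) and LUM (1.82 to 3.53) were above it in each. The summed mesenchymal markers were at 4630 to 4725 CPM in the NEG and 3158 to 3416 CPM in the POS libraries, and 8 luminal epithelial markers at 774 to 814 against 559 to 607 CPM. Much of the mesenchymal difference came from VIM, at 2714 and 2625 CPM in the NEG and 1257 and 1343 CPM in the POS libraries. CAV1 and, slightly, ZEB1 were also lower in both POS libraries. CD44 was higher there, at 263 and 298 against 242 and 236 CPM, and the lines overlapped at FN1 and AXL. The luminal sum was mostly KRT8, KRT18 and KRT19, each lower in both POS libraries. GATA3 was slightly lower there, ESR1 was higher (6.18 and 5.38 against 5.06 and 4.88 CPM), and the lines overlapped at EPCAM, CDH1 and PGR. The 6 endothelial markers summed to at most 97.1 CPM, mostly PECAM1, and the 6 leukocyte markers to at most 36.9 CPM, mostly CD68. The part of these marker differences in the integrin results was not tested. Over all genes, 22.4% passed edgeR's quasi-likelihood test at a Benjamini-Hochberg adjusted p under 0.05, 11.6% higher and 10.9% lower in the POS line. Higher genes made up 51.5% of these calls, and 36.0% when libraries were scaled to their total counts.

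The windows around the start sites of the alpha subunit genes, 250 bases before and 50 after, are shown because the reporter reads TCF/LEF activity and because these genes differed in opposite directions. Sequences are RefSeq's on GRCh38.p14, 5′ to 3′ on each gene's strand, and all 5 symbols matched an entry. Capitals mark the SP1 motif GGGCGG on either strand.
ITGA11, chr15:68432114-68432413, reverse strand: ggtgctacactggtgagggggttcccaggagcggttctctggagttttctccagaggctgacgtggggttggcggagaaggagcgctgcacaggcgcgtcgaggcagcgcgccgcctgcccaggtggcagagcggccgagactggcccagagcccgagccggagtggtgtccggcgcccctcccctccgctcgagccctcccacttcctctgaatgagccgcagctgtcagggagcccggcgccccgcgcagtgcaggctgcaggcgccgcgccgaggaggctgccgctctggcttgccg
ITGA10, chr1:145910001-145910300, reverse strand: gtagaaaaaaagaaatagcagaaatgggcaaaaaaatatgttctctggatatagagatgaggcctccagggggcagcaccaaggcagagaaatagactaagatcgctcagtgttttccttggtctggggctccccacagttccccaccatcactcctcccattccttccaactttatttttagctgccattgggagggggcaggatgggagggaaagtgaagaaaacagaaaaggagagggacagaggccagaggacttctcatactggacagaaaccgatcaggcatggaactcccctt
ITGA1, chr5:52787666-52787965, forward strand: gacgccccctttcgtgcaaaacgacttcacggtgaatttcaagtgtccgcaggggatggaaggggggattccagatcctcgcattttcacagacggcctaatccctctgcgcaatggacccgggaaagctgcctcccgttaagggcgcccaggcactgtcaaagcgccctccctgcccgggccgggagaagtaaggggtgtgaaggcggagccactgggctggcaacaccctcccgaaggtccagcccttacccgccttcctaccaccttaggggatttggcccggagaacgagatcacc
ITGA2, chr5:52989102-52989401, forward strand: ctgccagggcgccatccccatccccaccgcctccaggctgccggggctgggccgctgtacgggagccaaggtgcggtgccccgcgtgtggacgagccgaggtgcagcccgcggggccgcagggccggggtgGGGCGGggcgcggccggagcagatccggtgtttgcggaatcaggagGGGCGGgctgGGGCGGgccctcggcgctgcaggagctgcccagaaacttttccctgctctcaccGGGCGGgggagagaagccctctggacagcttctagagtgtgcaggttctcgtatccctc
None of these windows holds a TCF/LEF motif (CTTTG followed by AT, AA, TT or TA) or the SMAD motif CAGACA on either strand. Of 35116 such windows in the table, 13.8% hold one of the TCF/LEF motifs, 16.9% the SMAD motif and 44.95% GGGCGG. ITGA2 has GGGCGG at 4 places, while ITGA1, ITGA10 and ITGA11 have no match. The upstream window of ITGB1 (chr10:32958181-32958480, reverse strand), not shown, holds 3. The windows of ITGA11 and ITGA2 are rich in G and C, at 72.0% and 72.7%, above 84.2% and 85.7% of all windows. That of ITGA1 has 61.7% and that of ITGA10 only 48.7%, above 28.0% of all windows. ITGA1 shares its window letter for letter with PELO, a ribosome rescue gene with the same RefSeq start site.

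ITGA11 (ENSG00000137809, chromosome 15, 68296533 to 68432162 on GRCh38, reverse strand) was nearly lost in the POS line. It had 16627 and 16959 counts in the NEG libraries and 186 and 124 in the POS libraries. In CPM these are 262 and 276 against 2.96 and 2.37. Both NEG libraries were far above both POS libraries, and within each line the libraries lay close together. The means were 269 ± 10.1 CPM and 2.66 ± 0.421 CPM (SD, n = 2), so the POS line kept 0.990% of the NEG level. On the log2 scale this is -6.65, standard error 0.11, with a 95% interval of -6.88 to -6.42. It was the lowest among 16005 genes averaging at least 5 CPM in either line. No other listed gene overlaps the span of ITGA11, so its counts are not shared with a neighbour. In bulk RNA, fewer cells expressing ITGA11 and less ITGA11 RNA per cell cannot be told apart.

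ITGA10 (ENSG00000143127, chromosome 1, 145891208 to 145910189, reverse strand) was also lower in the POS line, to a much smaller extent. Its counts were 7832 and 7110 in the NEG and 4553 and 3269 in the POS libraries, or 123 and 116 against 72.5 and 62.4 CPM. The libraries of the lines did not overlap. Means were 120 ± 5.36 and 67.4 ± 7.14 CPM (SD, n = 2), a 1.77-fold lower level with a log2 fold change of -0.83, a standard error of 0.08 and a 95% interval of -0.99 to -0.66. A short antisense gene inside ITGA10, ENSG00000244619, had 4.69% as many counts, so it bears little on this value.

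ITGA2 (ENSG00000164171, chromosome 5, 52989326 to 53094779, forward strand) had 39612 and 37478 counts in the NEG and 26977 and 23148 in the POS libraries. In CPM these are 624 and 610 against 430 and 442, again with both NEG libraries above both POS ones. Means were 617 ± 9.65 and 436 ± 8.66 CPM (SD, n = 2), a level 1.42-fold lower. On the log2 scale this is -0.50, standard error 0.08, with a 95% interval of -0.67 to -0.33.

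ITGA1 (ENSG00000213949, chromosome 5, 52787896 to 52959210, forward strand) was the one alpha subunit gene of the group with a higher level in the POS line. Its counts were 11670 and 10980 in the NEG and 26029 and 23043 in the POS libraries, or 184 and 179 against 414 and 440 CPM. The POS libraries both lay above the NEG ones. Means were 181 ± 3.55 and 427 ± 17.9 CPM (SD, n = 2), 2.36-fold apart, with a log2 fold change of 1.24, a standard error of 0.08 and a 95% interval of 1.07 to 1.40. By log2 fold change it ranked 202 from the top among the genes averaging at least 5 CPM.

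ITGB1 (ENSG00000150093, chromosome 10, 32900319 to 33005792, reverse strand), the common beta subunit, had 61608 and 60236 counts in the NEG and 60443 and 56709 in the POS libraries. The levels were 970.2 and 981 against 962 and 1082 CPM, and the lines overlapped, since 1 POS library lay below both NEG ones and the other above. Means were 975 ± 7.40 and 1022 ± 84.8 CPM (SD, n = 2). The log2 fold change of 0.07 had a standard error of 0.09 and a 95% interval of -0.13 to 0.26, which leaves room for a change of either sign within those bounds. Its sign turned to -0.020 with scaling to total counts, and to -0.027 without the POS library numbered 2.

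**Figure D1:**
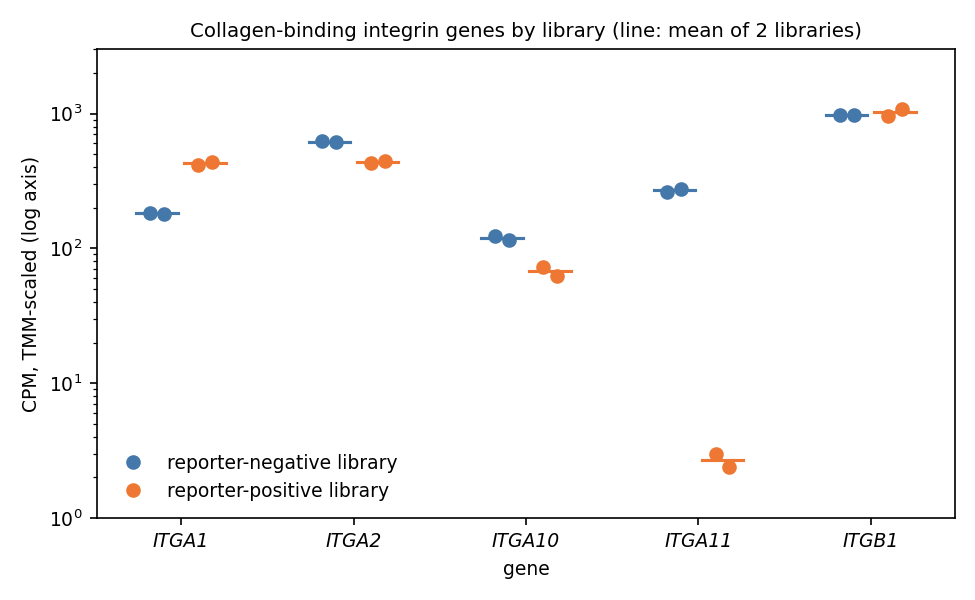
TMM-scaled CPM of the 5 collagen-binding integrin genes (log axis), with 1 point per library and a line at the mean of the 2 libraries of each line. ITGA11 drops from 262 and 276 CPM to 2.96 and 2.37, ITGA2 and ITGA10 are lower, ITGA1 is higher, and the libraries of the lines overlap at ITGB1.

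Of the 5 members, 1 was higher and 3 lower at an adjusted p under 0.05 in the test over all genes, where 22.4% of genes passed. The libraries of the lines did not overlap for 4 of them, against 57.7% of all genes tested. These counts describe genes chosen on this same comparison. Ratios of counts within a library need no scaling between libraries and show the same contrast. ITGA1 had 29.5% and 29.3% as many counts as ITGA2 in the NEG libraries, and 96.5% and 99.5% in the POS libraries. These counts of ITGA1 include reads of PELO, which lies inside it. Without the counts of nested genes, ITGA1 had 8205 and 7648 against 39593 and 37462 for ITGA2 in the NEG libraries. In the POS libraries it had 20587 and 18491 against 26964 and 23137. Relative to ITGB1, ITGA11 had 27.0% and 28.2% as many counts in the NEG and 0.308% and 0.219% in the POS libraries. ITGA2 stood at 64.3% and 62.2% of ITGB1 against 44.6% and 40.8%, and ITGA10 at 12.7% and 11.8% against 7.53% and 5.76%.

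Levels of different genes were compared per kb of merged exons. In the NEG line the order was ITGB1 at 162 ± 1.23 CPM per kb (SD, n = 2), ITGA2 at 78.0 ± 1.22, ITGA11 at 24.8 ± 0.928, ITGA10 at 18.9 ± 0.849 and ITGA1 at 9.76 ± 0.191. Neighbours in that order lay apart by more than their spread. In the POS line ITGB1 stood at 170.1 ± 14.1 CPM per kb (SD, n = 2) and ITGA2 at 55.1 ± 1.10. ITGA1 came next at 23.01 ± 0.965, then ITGA10 at 10.7 ± 1.13, and ITGA11 was last at 0.245 ± 0.0387, again apart by more than their spread. By this measure ITGA11 went from the third to the last place and ITGA1 from the last to the third. Per kb of gene span the NEG order was ITGB1 at 9.25, ITGA10 at 6.30, ITGA2 at 5.85, ITGA11 at 1.98 and ITGA1 at 1.06 CPM per kb, and the POS order ITGB1 at 9.69, ITGA2 at 4.13, ITGA10 at 3.55, ITGA1 at 2.49 and ITGA11 at 0.0196. There ITGA11 went from the fourth to the last place and ITGA1 from the last to the fourth. Against 16957 protein-coding genes tested, the level of ITGA11 per kb of merged exons was above 92.9% of them in the NEG and above 14.6% in the POS line. By the same measure ITGA1 was above 77.6% and 92.1%, ITGA10 above 89.7% and 79.8%, and ITGA2 above 98.6% and 97.5%. All levels of ITGA1 given here include reads of PELO, which lies inside it.

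ITGA2 made up most of the summed alpha subunit level per kb of merged exons in both lines. Its level fell from 78.0 to 55.1 CPM per kb, but its share was similar. The shares that changed most were those of ITGA11 and ITGA1. ITGA2 accounted for 59.6% and 59.1% of the sum in the NEG and for 61.5% and 62.3% in the POS libraries. ITGA11 accounted for 18.2% and 19.5%, and then for 0.308% and 0.243%. ITGA1 accounted for 7.48% and 7.38%, and then for 25.3% and 26.4%. Its shares and the sums include reads of PELO, the gene inside ITGA1, and were not worked out without them. The share of ITGA10 was 14.7% and 14.04% against 12.98% and 11.01%. The sum of the alpha subunit levels itself was lower in the POS line, at 89.0 ± 0.891 CPM per kb against 131 ± 1.33 (SD, n = 2). As a share of ITGB1 per kb it was 82.0% and 80.0% in the NEG and 55.2% and 49.8% in the POS libraries, so the extra ITGA1 did not make up the difference in ITGA11, ITGA2 and ITGA10. The deposited counts cover introns too, so the choice of length matters. Per kb of gene span the sum was at 168% and 161% of ITGB1 in the NEG and 113% and 98.0% in the POS libraries, again lower in the POS line but at a level about that of ITGB1 or above it. Per kb of gene span, ITGA10, whose span is the shortest, took 41.5% and 34.8% of the sum and ITGA2 38.5% and 40.5% in the NEG and POS line, while ITGA11 still went from 13.1% to 0.192% and ITGA1 from 6.97% to 24.5%.

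**Figure D2:**
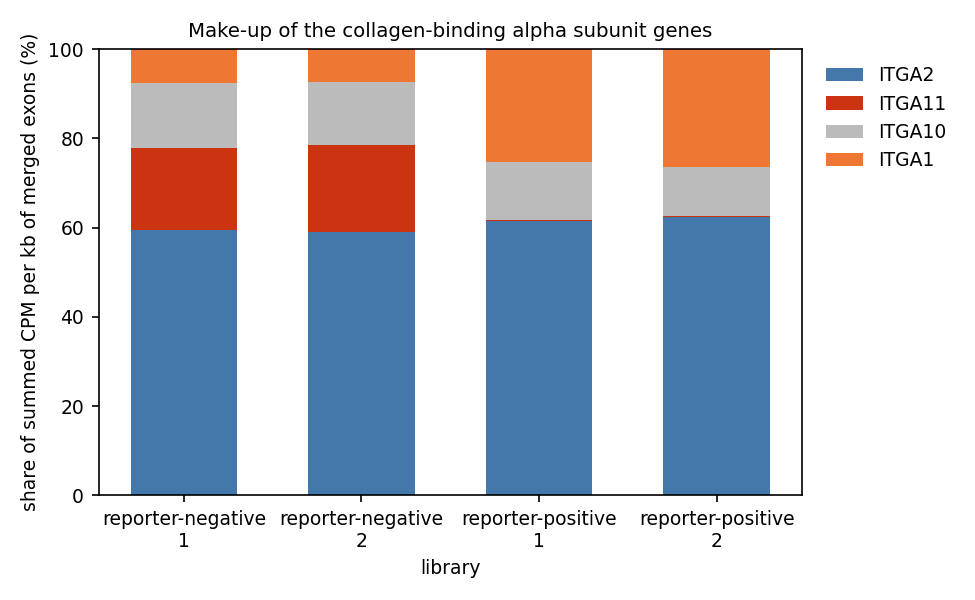
Share of each collagen-binding alpha subunit gene in their summed CPM per kb of merged exons, in percent, with 1 stacked bar per library. ITGA2 holds 59.1% to 62.3% in every library, while ITGA11 falls from 18.2% and 19.5% to 0.308% and 0.243% and ITGA1 grows from 7.48% and 7.38% to 25.3% and 26.4%. Values of ITGA1 include reads of PELO, which lies inside it.

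ITGA1 and ITGA2 lie side by side on chromosome 5 on the same strand, with 30.1 kb between the end of ITGA1 and the start of ITGA2, yet they differed in opposite directions. PELO lies wholly inside ITGA1, and its counts equal 23.2% of those of ITGA1. With PELO and a pair of pseudogenes taken away, ITGA1 kept 8205 and 7648 counts in the NEG and 20587 and 18491 in the POS libraries, and the remainder was 2.68-fold higher, or 1.42 on the log2 scale. PELO itself rose from 54.1 ± 0.291 to 85.9 ± 0.256 CPM (SD, n = 2), with edgeR adjusted p = 4.47e-07, and reads of PELO and of the part of ITGA1 that it overlaps cannot be told apart. ITGA2-AS1, an antisense gene over the end of ITGA1 and the start of ITGA2, shares 26792 bases of span with ITGA1 and 953 with ITGA2. It rose with ITGA1, from 61.9 ± 0.968 to 148 ± 11.01 CPM (SD, n = 2), with edgeR adjusted p = 1.07e-10, while ITGA2 was lower. Its counts equal 34.5% of those of ITGA1 and 19.5% of those of ITGA2, and without strand its reads in the shared bases cannot be told apart from theirs, so its rise is not a separate measurement from that of ITGA1. Its counts were not taken away from ITGA1, because it lies only partly inside. PELO-AS1, which runs away from the start of ITGA1 and overlaps it by 131 bases, rose from 5.43 ± 0.167 to 10.4 ± 0.181 CPM (SD, n = 2), with edgeR adjusted p = 2.67e-06. The next gene beyond ITGA2, the molybdenum cofactor synthesis gene MOCS2, was at 26.0 and 28.1 CPM (edgeR adjusted p = 0.364). Of 14 tested genes within 1 Mb of the pair, 4 were higher, all of them overlapping ITGA1, and 1 was lower.

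**Figure D3:**
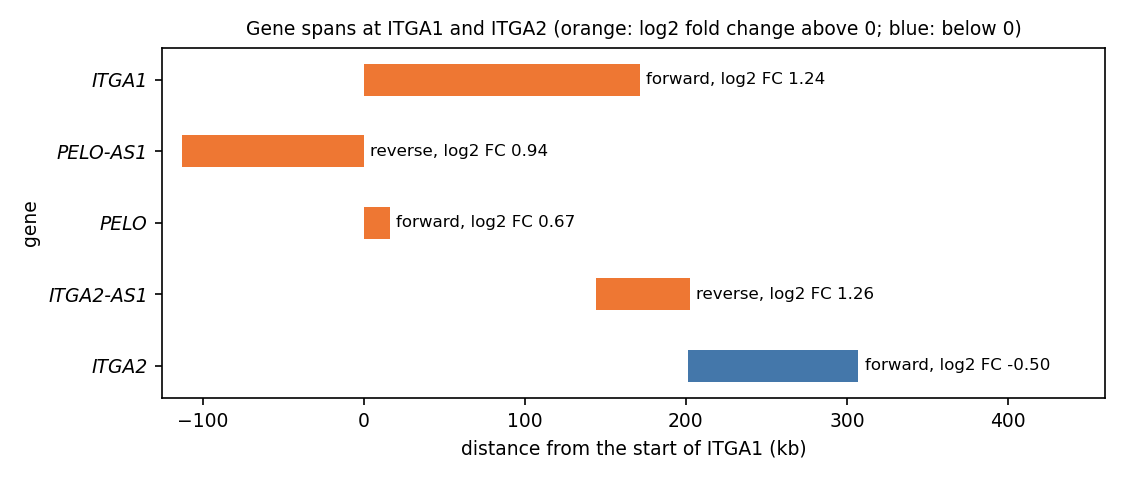
Spans of ITGA1, ITGA2 and the named genes that overlap them, in kb from the start of ITGA1, with the strand and log2 fold change of each beside its bar. ITGA1 (1.24), PELO (0.67), PELO-AS1 (0.94) and ITGA2-AS1 (1.26) have values above 0, and ITGA2, which starts 201 kb downstream of the start of ITGA1, has -0.50.

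The surroundings of ITGA11 were lower as well, but by far less than ITGA11. Of 29 tested genes within 1 Mb of it, 18 were lower, 0 higher and 11 did not pass in the test over all genes, in which 10.9% of genes were lower. Neither DESeq2 nor limma-voom called a higher gene there, and 0 had an unadjusted p under 0.05 in that direction by any of these tools. Leaving out the NEG library numbered 1 left 11 lower genes. The median log2 fold change of these neighbours was -0.48 against 0.00 for all genes, and their values ran from -2.003 to 0.30, where ITGA11 stood at -6.65. Many of these neighbours overlap another listed gene and can share reads with it, so the 18 are not separate measurements. In the fit on genes without an overlapping gene, 3 in this window were tested, with 1 lower and a median of -0.13. The nearest gene, the ubiquitin ligase adaptor gene FEM1B, fell from 68.0 ± 1.12 to 51.6 ± 3.83 CPM (SD, n = 2), with edgeR adjusted p = 3.73e-04. CLN6, an endoplasmic reticulum protein gene mutated in a lysosomal storage disease, fell from 14.8 ± 0.287 to 10.04 ± 0.915 CPM (SD, n = 2), with edgeR adjusted p = 2.13e-04. The lowest values among the neighbours were those of the NADPH oxidase gene NOX5, at -2.003, and the noncoding gene EWSAT1, at -1.99, both named after their values were seen. NOX5, whose span overlaps that of AC027088.1, was at 14.8 and 3.67 CPM. EWSAT1 was near the floor, with 37 and 33 counts in the NEG and 8 and 8 in the POS libraries (standard error 0.46). ITGA11 thus lay in a lower stretch of chromosome 15, and the part of that stretch in the low level of ITGA11 was not tested.

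Around the other members the calls were fewer or went both ways. Within 1 Mb of ITGA10, 10 of 49 tested genes were higher and 6 lower, against 11.6% and 10.9% of all genes. Their median log2 fold change was 0.04. With scaling to total counts 4 were higher and the median was -0.04. Without the NEG library numbered 1 there were 3 higher and 4 lower, and without that numbered 2 there were 6 and 3. RBM8A, an exon junction complex gene close by, was higher by 0.27, and PIAS3, an inhibitor of STAT3, lower, at -0.47 on the log2 scale (edgeR adjusted p = 0.0146 and 0.00807). The span of RBM8A holds that of GNRHR2, also among the higher genes. GNRHR2 rose from 40.0 to 51.3 CPM and RBM8A from 54.6 to 65.7 CPM. Reads of GNRHR2 and of the part of RBM8A around it cannot be told apart, so these rises are not separate measurements. RBM8A did not pass with scaling to total counts or without either NEG library. Around ITGB1, 1 of 19 genes passed, the ribosomal protein pseudogene RPS4XP11, which may share reads with its parent gene, and the median was 0.02. Over all 4 windows, 40 genes were called, and 23 without the NEG library numbered 1.

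**Figure D4:**
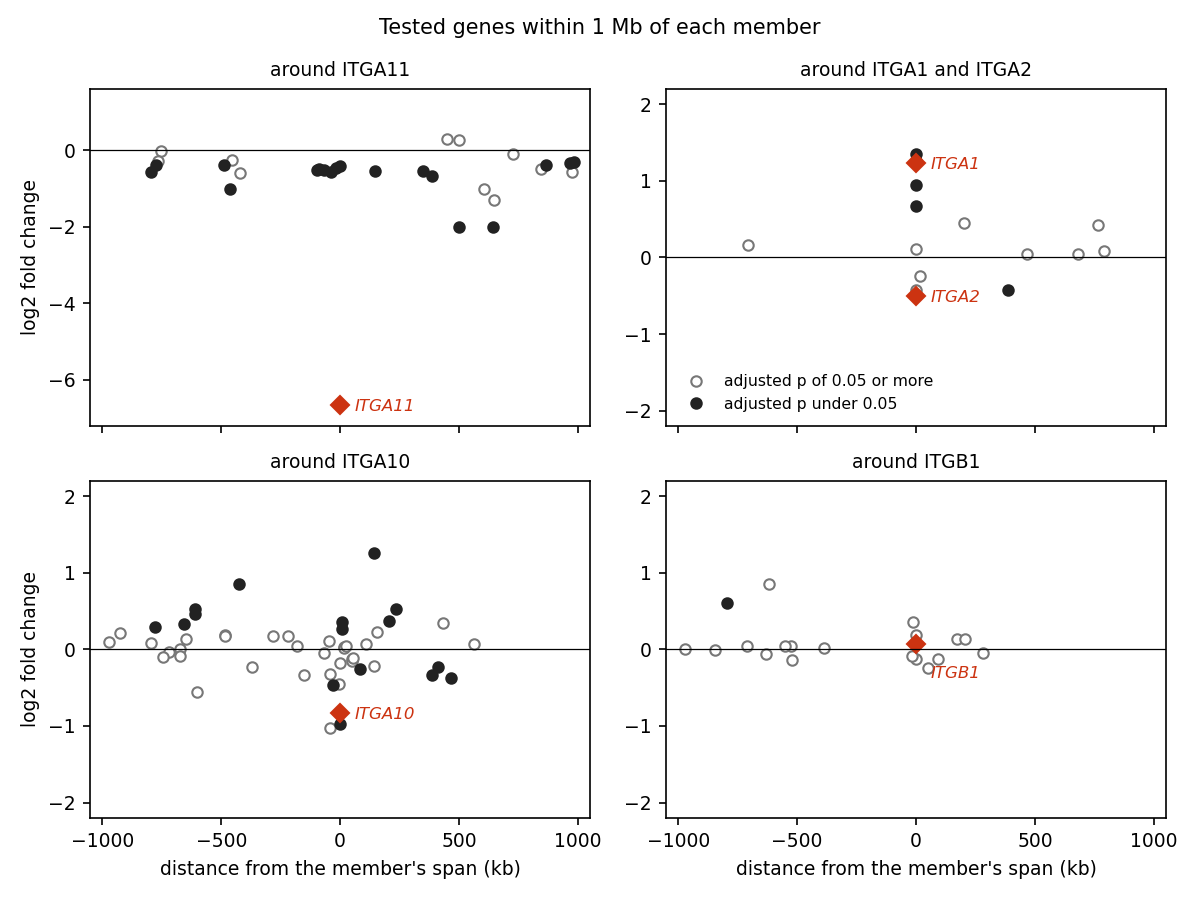
log2 fold change (POS over NEG) of tested genes within 1 Mb of each member, against their distance from its span in kb. Filled points passed at an adjusted p under 0.05 and red diamonds are the members, drawn at 0 kb. Around ITGA11, 27 of 29 neighbours lie below 0, between -2.003 and 0.30 in all, and ITGA11 stands far beneath them at -6.65, on an axis longer than those of the other panels.

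Genes were also ranked by how closely their profile over the 4 libraries followed that of ITGA11. Likeness was measured as the Euclidean distance between centred log2(CPM + 0.5) values among the 16005 genes averaging at least 5 CPM in either line. The 5 nearest genes were PCSK1N, TFF2, PPP2R2C, SCNN1A and ALDOC, at distances of 2.99 to 3.35. With 2 libraries per line, close together, this distance mostly follows the difference in log2 fold change. ITGA11 was already the lowest by that value, so its lack of a close companion adds nothing to that rank. The added 0.5 also narrows the measured fall of genes at low CPM. PCSK1N, which encodes an inhibitor of a prohormone convertase, was at 13.6 and 13.1 CPM in the NEG and 0.939 and 0.649 CPM in the POS libraries. TFF2, a trefoil peptide gene, was at 9.46 and 10.3 against 0.748 and 0.248 CPM. The POS line kept between 5.05% and 10.3% of the NEG level of these 5 genes, compared with 0.990% for ITGA11. They lie on chromosomes 4, 12, 17, 21 and X, so none is a neighbour of ITGA11.

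Among the other integrin subunit genes, 20 of 21 were tested, and 3 were higher, 3 lower and 14 did not pass, with a median log2 fold change of -0.05 against 0.00 for all genes. In the test over all genes, 11.6% were higher and 10.9% lower. The genes of the laminin receptor alpha6beta4 both fell: ITGB4, whose overlapping gene GALK1 had 32.0% as many counts, went from 359 ± 30.5 to 115 ± 6.73 CPM and ITGA6, overlapped by PDK1-AS1 with 67.9%, from 543 ± 2.48 to 317 ± 23.7 CPM (SD, n = 2), with edgeR adjusted p = 5.47e-12 and 5.92e-07. ITGB2, the beta chain of leukocyte integrins, rose from 14.3 to 23.9 CPM. The alpha3 and alpha5 partners of integrin beta1 did not pass (edgeR adjusted p = 0.691 and 0.516). ITGA3 was at 1099 and 1049 CPM and ITGA5, overlapped by GPR84-AS1 with 103% as many counts, at 174 and 165 CPM. Integrin beta1 has other alpha partners, so these genes do not stand for all of them. Among other alpha subunits ITGA6 was lower, as given above. ITGAV, overlapped by a gene with 84.5% as many counts, was higher, at 120 and 153 CPM (edgeR adjusted p = 0.00164). ITGA11 lay further from 0 than any of the 20 other subunits tested, whose log2 fold changes ran from -1.65 to 0.74.

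**Figure D5:**
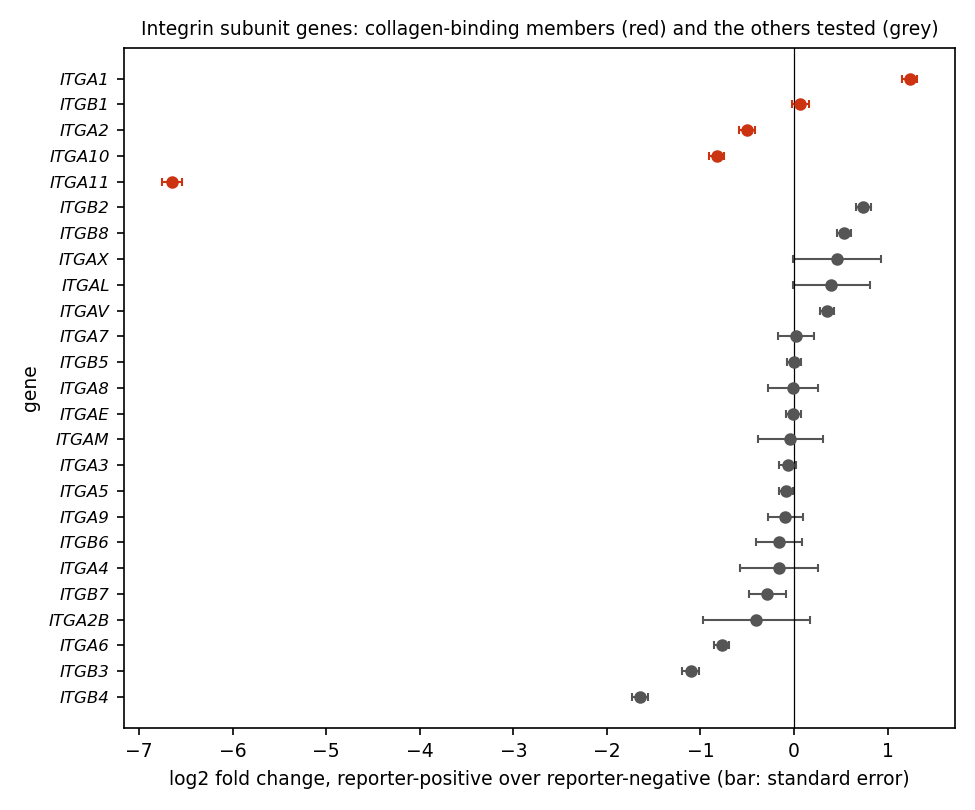
log2 fold change with its standard error for the 5 collagen-binding integrin genes (red) and the 20 other integrin subunit genes tested (grey). The other subunits run from -1.65 (ITGB4) to 0.74 (ITGB2), ITGA1 lies at 1.24, and ITGA11 at -6.65.

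On the ligand side, 24 of 25 collagen chain genes were tested, with 4 higher, 3 lower and 17 not passing (median log2 fold change 0.13). Of all genes tested, 11.6% were higher and 10.9% lower. The chains of collagen IV, the ligand that alpha1beta1 favours, included all 4 that rose, although the spans of COL4A1 and COL4A2 overlap each other. The other collagen IV chains, COL4A3 (1.98 and 2.27 CPM) and COL4A4 (2.97 and 3.07 CPM), did not pass (edgeR adjusted p = 0.550 and 0.885). Of the collagen list, 3 were higher with scaling to total counts or without either NEG library. All 4 that rose overlap another listed gene, COL4A5 and COL4A6 one with under 1% as many counts, so they were not in the fit on genes without overlap. COL4A5 rose from 6.72 ± 0.940 to 47.4 ± 1.43 CPM and COL4A6 from 3.26 ± 0.00265 to 17.6 ± 1.70 CPM (SD, n = 2), while the collagen VI genes COL6A3 and COL6A2 fell by 1.96 and 0.94 on the log2 scale (largest edgeR adjusted p of these = 1.62e-08). Fibrillar collagen I, a ligand of alpha2beta1 and alpha11beta1, was low in both lines, with COL1A1 at 3.81 and 4.14 CPM and COL1A2 under 1 CPM. This does not hold for each fibrillar chain: COL3A1 was under 1 CPM too, but COL5A1 was at 137 and 141 CPM. Of 10 collagen receptors that are not integrins, 1 was higher and 4 lower, and 1 and 2 of the 10 passed without the NEG library numbered 1 or 2. ADGRG1, an adhesion receptor for collagen III, fell from 39.6 ± 5.19 to 23.1 ± 0.876 CPM (SD, n = 2), with edgeR adjusted p = 2.29e-06. Of the collagen receptor kinase genes, DDR1 fell from 109 ± 1.13 to 88.4 ± 2.10 CPM (SD, n = 2), with edgeR adjusted p = 0.00373. DDR2, a receptor kinase for fibrillar collagen, was at 3.91 and 4.09 CPM.

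Inside the cell, 23 genes for proteins that activate or restrain integrins gave 2 higher, 6 lower and 15 not passing (median log2 fold change 0.01). For this list and those below, the shares over all genes were 11.6% higher and 10.9% lower. Without the NEG library numbered 1 or 2, 5 and 4 of this list passed. TLN2, a talin gene that like ITGA11 lies on chromosome 15 and is overlapped by a gene with 20.9% as many counts, fell from 17.1 ± 0.368 to 10.5 ± 0.604 CPM, and KANK1, which encodes a talin-binding protein, from 10.2 ± 0.326 to 4.65 ± 0.336 CPM (SD, n = 2), with edgeR adjusted p = 7.06e-06 and 4.60e-07. Of 25 focal adhesion adaptor and kinase genes, 5 rose and 8 fell (median -0.06). PXN, the paxillin gene, overlapped by PXN-AS1 with 48.2% as many counts, fell from 236 to 144 CPM, and its relative LPXN rose from 22.4 to 62.2 CPM. Of 22 tested genes for collagenases and collagen remodelling, 7 rose and 1 fell (median 0.18), and 12 passed without the POS library numbered 1. The collagenase gene MMP1, known to respond to collagen binding by alpha2beta1, rose from 223 ± 5.39 to 747 ± 76.8 CPM (SD, n = 2), with the overlapping WTAPP1 at 100.3% of its counts. The gene that fell was LOXL1, a collagen crosslinking enzyme gene that also lies on chromosome 15, from 36.7 to 18.0 CPM, overlapped by LOXL1-AS1 with 79.7% as many counts. Stromal genes often found together with integrin alpha11 in tumours moved both ways, with 4 of 17 tested higher and 4 lower (median 0.29). The smallest adjusted p was that of INHBA, which rose from 2.40 ± 0.158 to 35.3 ± 1.87 CPM (SD, n = 2, edgeR adjusted p = 2.40e-16). INHBA is overlapped by INHBA-AS1 with 29.7% as many counts. CTHRC1 rose from 1.75 to 5.50 CPM, and LOXL1, which is in this list too, fell. The list also held FBN1, the fibrillin-1 gene, which also lies on chromosome 15 and rose from 75.9 to 116 CPM. The type I collagen gene COL1A1 did not pass (edgeR adjusted p = 0.695).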

How the data were processed

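The authors deposited a single count table (raw reads, Ensembl gene IDs), 1 column per library; the columns were matched to the libraries by title and all were used. HISAT2, Bowtie2, DESeq2 and the build hg19 are named per the submitters' processing notes, without roles; neither the counter nor its use of strand is given there. All 43714 IDs are in GENCODE release 29 (GRCh38), which gives the positions and lengths. In 1358 of 1358 pairs of a gene with at least 100 counts and the gene whose intron holds it, 858 of them on opposite strands, the host had at least as many counts in each library. The deposited counts therefore cover whole gene spans, introns included, on both strands.

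Testing used edgeR 4.0.16 in R 4.3.3, with TMM scaling, filterByExpr (minimum count 10, total 15), a robust quasi-likelihood fit of line alone, and p-values adjusted by Benjamini-Hochberg over 30952 genes, called under 0.05. Standard errors are the log2 coefficient over the square root of F. Tested on simulated counts for this comparison (30357 genes), it called 28 of 65 genes changed 1.5-fold, 44 of 66 changed 2-fold, 61 of 65 changed 4-fold and 3 of 30161 unchanged genes. The simulation changed far fewer genes than the 22.4% called in the data and took each gene's spread from edgeR's trend over level. Its rates therefore need not hold for the real comparison. Alternatives were RLE and total count scaling, 2 other filters, DESeq2 1.42.0, limma-voom (limma 3.58.1), a replicate block, leaving out each library, genes without overlap and other windows or lengths.

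Members and lists were chosen with earlier results of these data known. Named are the members, up to 4 called genes with the smallest adjusted p per list (otherwise the 2 with the highest CPM), the 4 nearest called neighbours per window and the 5 genes most like ITGA11; not each is discussed. MOCS2, NOX5, EWSAT1, ITGA3, ITGA5, ITGAV, COL1A1, COL5A1 and DDR2 were added for context after their values were seen. Cell type markers came from a separate list. Protein sequences were not used here. Totals of 55894092 to 63034563 counts leave small counting error for the members.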

Additional observations from a re-analysis of the deposited data

How the results depend on the processing

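ITGA1, ITGA2, ITGA10 and ITGA11 kept their direction under each scaling, filter and tool run and without each library. With scaling to total counts, which shifted the median of all genes by -0.08, the log2 fold changes were 1.15 for ITGA1, -0.59 for ITGA2 and -0.020 for ITGB1. ITGA1 was at 1.42 without the counts of nested genes. Leaving out 1 library at a time gave 1.19 to 1.28 for ITGA1, -0.53 to -0.48 for ITGA2, -0.94 to -0.73 for ITGA10, -6.82 to -6.51 for ITGA11 and -0.027 to 0.15 for ITGB1.

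Per kb of gene span in place of merged exons, the shares of the alpha subunit sum in NEG and POS were 6.97% and 24.5% for ITGA1, 38.5% and 40.5% for ITGA2, 41.5% and 34.8% for ITGA10, and 13.1% and 0.192% for ITGA11.

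Counts of calls ranged from 4358 (without the NEG library numbered 1) to 9161 over all genes when a library was left out, from 1 to 7 for other collagen receptors, 4 to 10 for integrin activators and inactivators and 23 to 44 for the neighbours. In the fit on genes without an overlapping gene, which tests fewer genes, 2204 passed in all, with 0 other integrin subunits, 4 collagen chains, 1 other collagen receptor, 3 activators and inactivators, 4 focal adhesion genes, 0 collagenases and remodelling genes, 3 stromal genes and 9 neighbours. Behind both counts of 0 (edgeR), 0 of 6 and 1 of 5 genes had an unadjusted p under 0.05; of the same genes DESeq2 called 0 and 1 and limma-voom 0 and 1. A window of 2 Mb held 66 called neighbours. The cause of the other shifts was not tested.

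The library numbers were not taken as pairs: same-numbered libraries deviated from their line means with a correlation of -0.0258. With the number as a replicate block, 8226 genes were called against 6942, and the log2 fold changes were -6.65 for ITGA11 and 1.24 for ITGA1. Of 445 results for single named genes other than the members under alternatives, 428 kept their side of the threshold, 17 lost it and none changed sign.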
